A study of Mus musculus with 26 samples.

Results

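The regions described here are ATRX peaks of wild-type mouse embryonic fibroblasts (MEFs) that lie away from gene starts and carry EZH2. Of the 9141 peaks in the ATRX list of WT replicate 1, 3229 overlapped a peak of WT replicate 2 by at least 1 bp. Of these, 2346 lay more than 2 kb from the transcription start site (TSS) of every one of the 55536 genes of the GENCODE M21 annotation, and 1829 of them also overlapped an EZH2 peak of WT replicate 1 or 2. These 1829 distal ATRX peaks with EZH2 were 20.01% of the list, 56.6% of the peaks shared by both WT replicates and 78.0% of the shared distal ones. The regions were chosen by the WT peak lists of ATRX and EZH2, so ATRX and EZH2 in WT are given as descriptions only. The 517 distal shared peaks without EZH2, the 883 shared peaks within 2 kb of a TSS, here called promoter peaks, and 3326 distal EZH2 peaks that were present in both WT EZH2 lists but had no ATRX peak served for comparison.

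The study asked how RNA contacts of ATRX bear on where ATRX and PRC2 sit on chromatin, and on gene expression. CUT&RUN, which sequences the chromatin fragments that an antibody-tethered nuclease cuts free, gave 16 peak lists, with 2 replicate libraries per genotype and target. ATRX lists came from WT and ATRXΔRBR only, whereas EZH2 and H3K27me3 lists also came from ATRX KD. The same 3 genotypes were sequenced for polyadenylated RNA, again with 2 libraries each.

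All cells were MEFs that the study's methods give as female. WT cells carried unedited Atrx. ATRXΔRBR cells carried a CRISPR deletion of the RNA binding region (RBR) in the endogenous gene. They were 1 clone, picked after puromycin selection, so the deletion and other changes of that clone cannot be told apart. ATRX KD cells expressed an shRNA against Atrx and were selected with puromycin. No line with a non-targeting shRNA is among the samples used here. The methods call the replicates biological but name no separate cultures, so p-values measure the spread between these libraries. IgG libraries were not analysed here.

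ATRX is a chromatin remodeler of the SWI/SNF family that works with DAXX to deposit the histone variant H3.3 and is best known for its place at tandem repeats, telomeres and heterochromatin. EZH2 is the catalytic subunit of PRC2, the complex that writes H3K27me3, and PRC2 occupancy is usually described at CpG-rich promoters of silent developmental genes. In fibroblasts, distal regulatory elements commonly hold sites for AP-1, the dimer of FOS and JUN proteins, and for TEAD and RUNX factors.

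The libraries labelled ATRX KD stood apart before any region was looked up. Their largest −log10 q-values were 179 and 178 for EZH2 and 170 and 173 for H3K27me3, while the largest in the other 12 lists lay between 17.2 and 36.8. Their H3K27me3 peaks covered 0.232% and 0.204% of the assembled genome, against 3.77% and 4.34% in WT and 5.41% and 4.65% in ATRXΔRBR. Atrx RNA was also not lower in them. The paper describes its ATRX KD lines as acutely depleted of ATRX, with lower DAXX protein, and shows a western blot. Atrx had 233 and 141 TPM in WT, 175 and 124 TPM in ATRXΔRBR and 331 and 512 TPM in the libraries labelled ATRX KD. On the count scale the log2 fold change against WT was −0.15 in the libraries labelled ATRX KD (standard error 0.21, edgeR quasi-likelihood adjusted p = 0.60) and −0.63 in ATRXΔRBR (standard error 0.22, adjusted p = 0.14). Gene-level RNA does not check a deletion inside the protein. Any difference that involves the libraries labelled ATRX KD therefore cannot be told apart from a difference in how these libraries were made, and each result pooled over them and other libraries is also given without them.

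Sequences of 4 regions show what these places look like at the level of DNA. Each is the whole ATRX peak of WT replicate 1, read 5′ to 3′ from the plus strand of GRCm38, in lower case with matches of the AP-1 letters TGANTCA, or of the TEAD letters GGAATG on either strand, in capitals. They were taken as the first region of at most 300 bp in each of 4 sets ordered by ATRX fold enrichment in WT, namely all regions, regions in every ATRX and EZH2 list, regions with H3K27me3 in both WT lists, and regions with EZH2 in both WT lists and in no other list.
chr15:73434981-73435222, all regions, intergenic: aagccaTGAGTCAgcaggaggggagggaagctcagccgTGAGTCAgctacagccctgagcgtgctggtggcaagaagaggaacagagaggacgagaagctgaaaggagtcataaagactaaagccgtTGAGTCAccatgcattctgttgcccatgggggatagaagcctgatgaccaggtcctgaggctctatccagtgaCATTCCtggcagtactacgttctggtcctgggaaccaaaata
chr14:14633123-14633345, in all 4 ATRX and all 6 EZH2 lists, intergenic: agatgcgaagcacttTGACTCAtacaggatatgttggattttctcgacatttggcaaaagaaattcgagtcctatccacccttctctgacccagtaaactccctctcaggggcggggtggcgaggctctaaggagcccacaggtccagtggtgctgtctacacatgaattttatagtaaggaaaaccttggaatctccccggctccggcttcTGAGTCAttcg
chr5:129455270-129455542, H3K27me3 in both WT lists, intergenic: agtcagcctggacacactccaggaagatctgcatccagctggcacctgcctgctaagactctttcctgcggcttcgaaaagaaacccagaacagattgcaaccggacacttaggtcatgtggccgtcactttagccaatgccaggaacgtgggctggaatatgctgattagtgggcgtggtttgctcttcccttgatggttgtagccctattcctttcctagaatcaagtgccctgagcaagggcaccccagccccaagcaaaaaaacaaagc
chr13:17511381-17511593, EZH2 in both WT lists and none outside WT, intron of Sugct: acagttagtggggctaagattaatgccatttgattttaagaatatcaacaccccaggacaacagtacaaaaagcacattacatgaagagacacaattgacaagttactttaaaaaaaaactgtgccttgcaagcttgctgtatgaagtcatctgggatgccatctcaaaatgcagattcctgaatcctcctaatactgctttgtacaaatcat

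The region on chromosome 15 held 3 AP-1 matches and 1 TEAD match within 242 bp, and that on chromosome 14 held 2 AP-1 matches within 223 bp. The other 2 regions held neither motif. The GC content of the 4 regions was 53.3%, 49.8%, 52.4% and 37.1% in the order printed. Fold enrichment, the ratio of reads in a peak to the local background as MACS2 computed it, differs in scale between lists and is given for each list as a description. At the chromosome 15 region it was 7.54 and 4.06 in the ATRX lists of WT and 3.44 and 5.86 in those of ATRXΔRBR, and EZH2 had 6.10 and 4.92 in WT and 4.16 and 6.60 in ATRXΔRBR. This region had no EZH2 peak in the libraries labelled ATRX KD and no H3K27me3 peak in any list. The chromosome 14 region kept EZH2 in the libraries labelled ATRX KD too, with fold enrichments of 3.38 and 4.29. The chromosome 5 region had H3K27me3 at 3.48 and 3.38 in the WT lists and in no other list. The Sugct region had EZH2 at 5.93 and 5.53 in WT and in no ATRXΔRBR or ATRX KD list, although ATRX remained in ATRXΔRBR replicate 2 at 4.42.

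In WT the distal ATRX peaks with EZH2 had a median width of 401 bp, from 141 to 2635 bp, against 310 bp for all ATRX peaks of WT replicate 1, 369 bp for the distal peaks without EZH2 and 412 bp for those at promoters. Their median ATRX fold enrichment was 4.68, from 1.93 to 11.6, against 4.23 for all other ATRX peaks of that list and 4.34 for the distal peaks without EZH2, and the median region lay at percentile 69.3 of the list. The highest fold enrichment, 11.6, belonged to chr10:3321390-3322049, an intergenic region 18.3 kb from the TSS of Gm18703. It was followed by chr10:12878555-12878996 near Utrn, the gene of utrophin, at 9.20, and by chr15:4247080-4248068 at 8.51. All 3 had ATRX in both ATRXΔRBR lists and EZH2 in both WT and both ATRXΔRBR lists, and none had EZH2 in the libraries labelled ATRX KD or H3K27me3 anywhere. EZH2 was listed at 1267 of the 1829 regions (69.3%) in both WT replicates, at 387 in replicate 1 alone and at 175 in replicate 2 alone. The member nearest to a TSS was 2004 bp away, and the promoter peak farthest from a TSS was 1993 bp away. The overlap with EZH2 had a median of 294 bp and went down to 1 bp, with 15 regions under 50 bp, and 16 of the peaks without EZH2 lay within 500 bp of a WT EZH2 peak.

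Most of these regions lay in introns or between genes. Introns held 842 (46.0%), exons 123 (6.72%) and intergenic sequence 864 (47.2%), and 122 regions (6.67%) lay within 2 kb of the start of another annotated transcript of a gene. For the distal EZH2 peaks without ATRX the corresponding shares were 33.7% in introns, 26.2% in exons and 40.1% between genes, and 23.9% lay at the start of another transcript. The median distance to the nearest TSS was 19.3 kb for the ATRX peaks with EZH2, 21.6 kb for distal ATRX peaks without EZH2 and 11.5 kb for distal EZH2 peaks without ATRX. Only 97 regions (5.31%) were over 100 kb from a TSS.

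The regions were unevenly spread over chromosomes. The density was 0.671 per Mb over the assembled genome, with 1.48 per Mb on chromosome 10, 1.302 on chromosome 19, 1.23 on chromosome 15 and 1.13 on chromosome 5. Chromosome 7 had 0.199 per Mb, and the X chromosome had 8 regions, or 0.0468 per Mb. The X also held 35 of the distal ATRX peaks without EZH2, of which 25 fell in a single 10 Mb bin, and the Y chromosome held 1 region although the cells are given as female. Chromosome 10 was also the densest for all ATRX peaks of WT replicate 1 (5.42 per Mb, followed by chromosome 19 with 5.36) and for the distal ATRX peaks without EZH2 (0.344 per Mb). The distal EZH2 peaks without ATRX were densest on chromosome 19 (2.62 per Mb) and had 1.06 per Mb on chromosome 10. Counted in 10 Mb bins, the 10 fullest bins held 202 regions (11.04%). These bins were picked for their number of regions, and held 7.74% of the distal ATRX peaks without EZH2, 7.36% of all ATRX peaks of WT replicate 1 and 4.75% of the distal EZH2 peaks without ATRX. The fullest bin, chr10:60000001-70000000, held 24 regions. Copy number of these cells was not measured here, and its part in these densities was not tested.

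**Figure D1:**
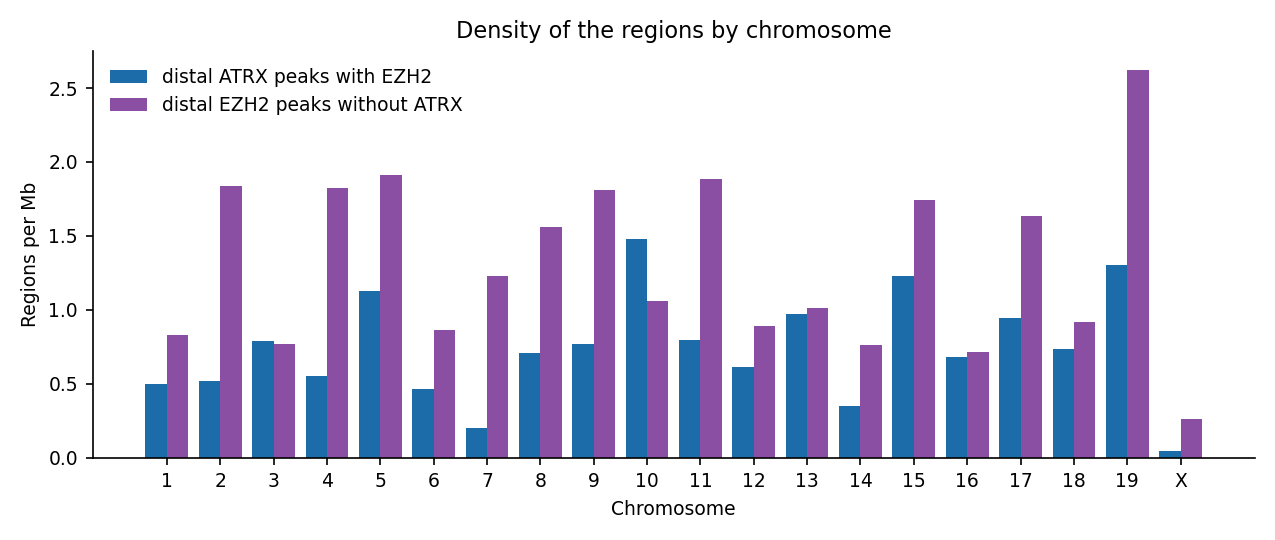
Number of regions per Mb of each chromosome of GRCm38 (vertical axis) for the 1829 distal ATRX peaks with EZH2 (blue) and the 3326 distal EZH2 peaks without ATRX (purple). The blue bars are tallest on chromosome 10 at 1.48 per Mb and close to 0 on X at 0.0468 per Mb, while the purple bars are tallest on chromosome 19.

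Within chromosomes the regions were mostly single. The median gap between neighbours was 507 kb. Another region lay within 10 kb of 239 of them (13.1%), in 106 pairs and 9 groups of 3. Groups of 3 lay in Matn2, in Ahnak, which encodes a giant scaffold protein, and in Il34, the gene of a cytokine, and another lay beside Malat1, a long nuclear RNA, at chr19:5810295-5815375. The regions fell in the bodies of 834 genes, 678 of them protein-coding, which are called host genes below. Protein-coding host genes had a median length of 121 kb, against 17.3 kb for all protein-coding genes, and the part of length in which genes hold a region was not tested. Gm20388, a read-through model of 4435 kb that overlaps many other genes, held 6 regions. Matn2, which encodes the extracellular matrix protein matrilin-2, and Syn3, a synapsin gene, held 5 each. Babam2, a subunit of the BRCA1-A complex, Myof, the membrane repair protein myoferlin, and Sorcs2, a sorting receptor, held 4 each.

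The AP-1 letters were the most frequent of the 7 patterns searched. TGANTCA, which is its own reverse complement, was present in 58.0% of the 300 bp windows at the midpoints of the 1828 regions on assembled chromosomes. It was present in 48.7% of such windows of distal ATRX peaks without EZH2, in 25% for distal EZH2 peaks without ATRX, in 21.3% for promoter peaks and in 8.84% of all 8824592 genome tiles of 300 bp without N. Over whole peaks, 73.2% of the regions had at least 1 match, 613 (33.5%) had 2 or more, and 1 region had 19. The nearest match lay a median of 68 bp from the midpoint. In steps of 50 bp, the share of regions with a match was highest just before the midpoint at 16.3% and was 2.68% at the outer edge, 500 bp away. These are matches of letters, and binding of AP-1 was not measured.

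**Figure D2:**
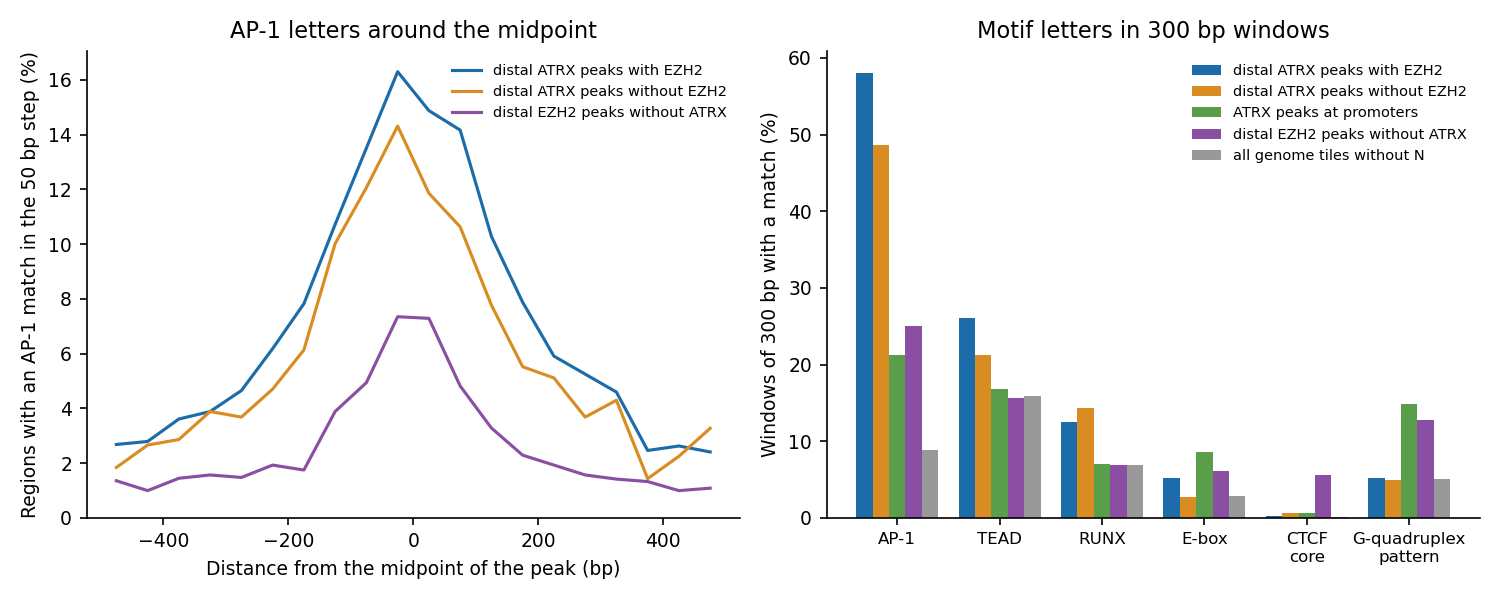
Left, share of regions (%) with a match of the AP-1 letters TGANTCA in each 50 bp step (vertical axis) against distance from the midpoint of the peak in bp (horizontal axis), for 3 sets of regions. Right, share of 300 bp windows (%) with a match of each of 6 patterns, for 4 sets of regions and for all genome tiles. The AP-1 share of distal ATRX peaks with EZH2 is 58.0% against 8.84% of genome tiles, and the other patterns lie closer to the grey bars.

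The other patterns were nearer to the genome as a whole. The TEAD letters GGAATG were found in 26.0% of windows (15.9% of genome tiles), the RUNX letters TGTGGTT in 12.47% (6.92%) and the E-box CACGTG in 5.20% (2.88%), each searched on both strands and none of them containing another. In distal ATRX peaks without EZH2 the TEAD, RUNX and E-box shares were 21.3%, 14.3% and 2.66%. A CTCF core match was found in 0.274% of windows (5 regions) and in 0.142% of genome tiles. It was found in 0.613% for distal ATRX peaks without EZH2 (3 peaks) and in 5.54% for the distal EZH2 peaks without ATRX. The pattern of a G-quadruplex, 4 runs of at least 3 G with gaps of 1 to 7 bases, was in 5.14% of windows and in 5.03% of genome tiles. Distal ATRX peaks without EZH2 had it in 4.91%, promoter peaks in 14.9% and distal EZH2 peaks without ATRX in 12.7%. A pair of telomere repeats in tandem was found in 1 region (0.0547%), against 3.89% of distal ATRX peaks without EZH2.

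In base composition the regions were not of the CpG island kind. Their median GC content was 47.6%, with quartiles of 43.5% and 51.6%, against 44.4% for distal ATRX peaks without EZH2, 52.0% for distal EZH2 peaks without ATRX and 56.3% for promoter peaks. The median ratio of observed to expected CpG was 0.205, against 0.650 in promoter peaks and 0.355 in distal EZH2 peaks without ATRX. At least 50% of the bases were annotated as repeats in 1.59% of the regions, in 15.95% of the distal ATRX peaks without EZH2 and in 29.4% of genome tiles. Only 1 region lay outside the assembled chromosomes, against 28 (5.42%) of the distal ATRX peaks without EZH2.

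ATRX was listed again at many of these regions in ATRXΔRBR cells. The ATRX lists of ATRXΔRBR had a peak at 58.6% of the regions in replicate 1 and at 76.7% in replicate 2, a mean of 67.6% ± 12.8 (SD, n = 2 libraries). Both lists had a peak at 853 regions (46.6%), 1 list at 768 (42.0%) and neither at 208 (11.4%). For distal ATRX peaks without EZH2 the shares were 39.1% and 76.0%, so regions with EZH2 were 19.5 percentage points higher in replicate 1 and 0.693 points higher in replicate 2. The mean difference of 10.1 points had p = 0.5 in an exact two-sided sign-flip permutation test over libraries, the smallest p that 2 libraries allow, and replicate 1 decides its size. With peaks at a q-value of 0.01 or less the mean difference was 4.80 points. Promoter peaks were again listed at 69.6% and 60.1%, in the opposite order of replicates. Regions with higher ATRX enrichment in WT were more often found again, with 49.7% below the lower quartile of fold enrichment and 66.4% above the upper quartile for replicate 1, and 75.1% and 79.3% for replicate 2. Of the distal EZH2 peaks without ATRX in WT, 7.07% and 2.35% had an ATRX peak in ATRXΔRBR.

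The share of regions with EZH2 in ATRXΔRBR differed between replicates. It is not set against WT, where the choice of regions fixed the share. In ATRXΔRBR an EZH2 peak was present at 66.8% of the regions in replicate 1 and at 39.3% in replicate 2, a mean of 53.0% ± 19.4 (SD, n = 2 libraries), where the whole lists held 22418 and 11408 peaks. Both lists had EZH2 at 588 regions (32.1%), 1 at 764 (41.8%) and neither at 477 (26.1%). In the libraries labelled ATRX KD, whose lists held 5376 and 7093 peaks, the shares were 6.56% and 11.5%, a mean of 9.05% ± 3.52 (SD, n = 2 libraries), with both lists at 79 regions (4.32%) and neither at 1577 (86.2%). Both ATRXΔRBR shares lay above both shares in the libraries labelled ATRX KD. The mean difference was 44.0 points, with p = 0.333 in an exact two-sided permutation test, the smallest that 2 libraries against 2 allow. Promoter peaks had EZH2 at a mean of 76.0% ± 12.49 in ATRXΔRBR and of 53.9% ± 3.92 in the libraries labelled ATRX KD (SD, n = 2 libraries each).

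Distal ATRX peaks without EZH2 were split from the regions by EZH2 in WT, so a site that keeps its state in another genotype puts the regions higher, and the EZH2 shares of both sets are given as a description. The shares of the peaks without EZH2 in WT were 15.5% and 0.193% in ATRXΔRBR and 9.67% and 10.1% in the libraries labelled ATRX KD. The differences were 51.3 and 39.1 points in ATRXΔRBR and −3.11 and 1.48 points in the libraries labelled ATRX KD. The mean difference was 22.2 points over the 4 lists, 45.2 points without the libraries labelled ATRX KD and −0.816 points in those libraries alone. The planned exact sign-flip permutation test over the 4 lists gave p = 0.375 and is not read as a result, since EZH2 chose the sets. The EZH2 peaks that the libraries labelled ATRX KD had at the regions lay at a median percentile of 55.5 and 51.9 of fold enrichment within their own lists, while those at distal ATRX peaks without EZH2 lay at 96.6 and 97.9.

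Set against other distal EZH2 sites, the regions had EZH2 listed again more often in some lists and less often in others. The 1267 regions with EZH2 in both WT lists had it at 76.7% and 52.8% in ATRXΔRBR and at 8.998% and 15.5% in the libraries labelled ATRX KD. For the 3326 distal EZH2 peaks without ATRX the shares were 65.4% and 54.4% in ATRXΔRBR and 11.6% and 15.003% in the libraries labelled ATRX KD. The differences were 11.3, −1.59, −2.64 and 0.546 points, with a mean of 1.91 points and p = 0.875 in an exact sign-flip permutation test (smallest possible p 0.125). Without the libraries labelled ATRX KD the mean was 4.87 points. Over all lists the mean was 0.109 points with peaks at a q-value of 0.01 or less. It was 0.995 points where only the TSS of protein-coding genes counted. For regions with EZH2 in WT replicate 1 alone the shares in ATRXΔRBR were 44.2% and 7.24%. For those with EZH2 in WT replicate 2 alone they were 44.6% and 12.6%. The WT EZH2 lists that chose the regions also made this split, so these shares are a description and were not tested.

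**Figure D3:**
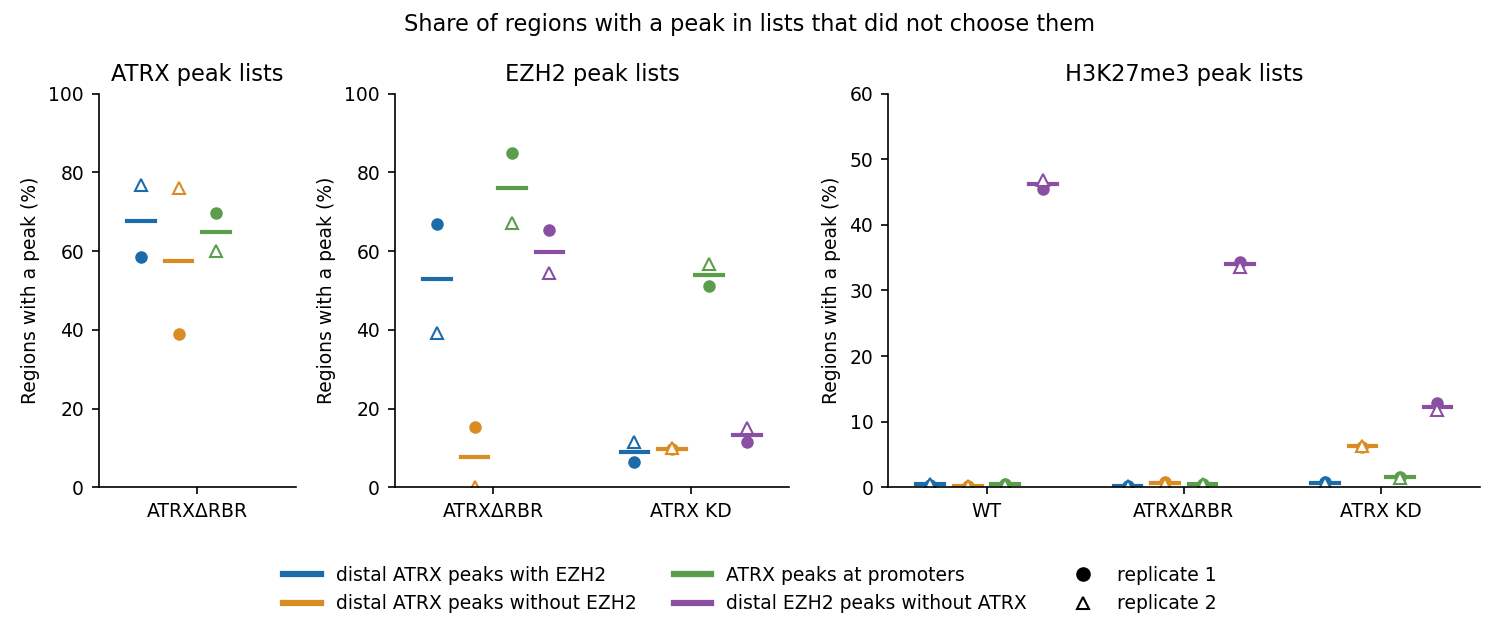
Share of regions (%) with a peak in each list that did not choose them, for ATRX, EZH2 and H3K27me3 (panels, with a vertical axis of 0 to 100% or 0 to 60%) by genotype. Circles are replicate 1, triangles replicate 2 and bars the mean of 2 libraries. The distal ATRX peaks with EZH2 (blue) have EZH2 at 66.8% and 39.3% in ATRXΔRBR and at 6.56% and 11.5% in the libraries labelled ATRX KD, and H3K27me3 below 1% everywhere.

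Among the regions themselves, EZH2 went with ATRX in the ATRXΔRBR lists. Of the 853 regions with ATRX in both ATRXΔRBR lists, 80.9% and 49.1% had EZH2 in ATRXΔRBR replicates 1 and 2. Of the 208 regions with ATRX in neither list, 41.3% and 11.1% had it. In the libraries labelled ATRX KD the shares were 8.32% and 16.2% against 2.40% and 3.37%. The difference was positive in all 4 lists, with a mean of 24.1 points and p = 0.125 in an exact sign-flip permutation test, the smallest that 4 lists allow, in a comparison chosen after the values were seen. Without the libraries labelled ATRX KD the mean was 38.8 points, and in them alone 9.37 points. Regions with ATRX in both lists were wider, with medians of 475 bp against 302 bp. Among regions under the median width the mean difference was 24.6 points, and among the wider ones 22.4 points, but the groups were not matched in width within either, and the part of width was not tested further. The same regions already differed in WT, where EZH2 was listed at 92.4% and 82.2% of those with ATRX in both ATRXΔRBR lists and at 85.1% and 75.5% of those with ATRX in neither, and median ATRX fold enrichment was 4.77 against 4.51.

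**Figure D4:**
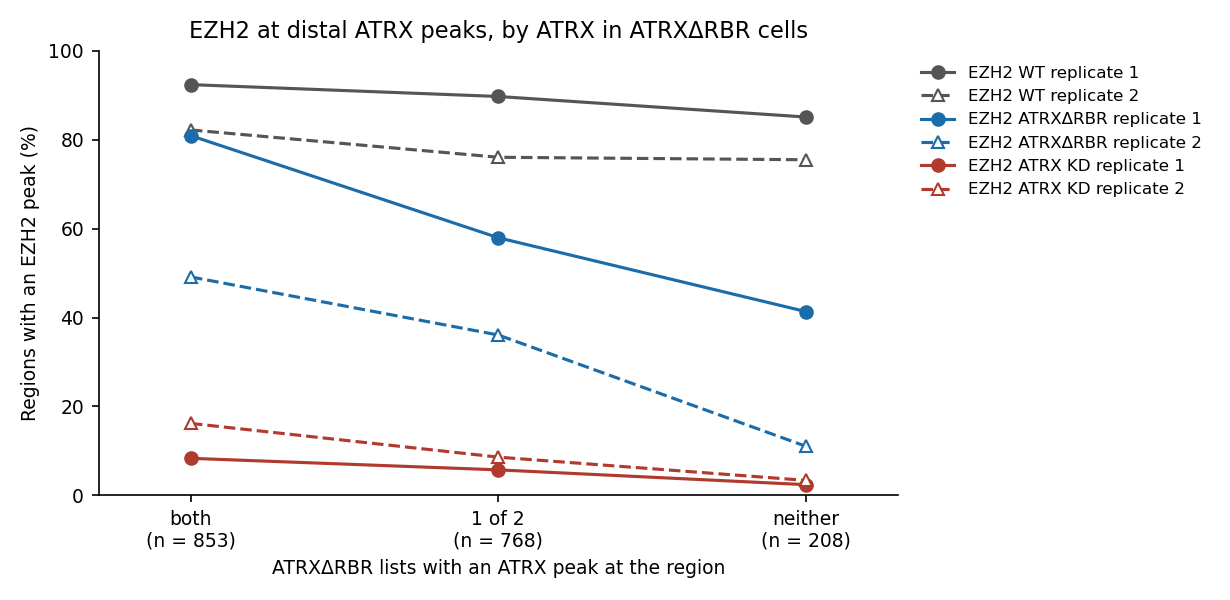
Share of regions (%) with an EZH2 peak (vertical axis) in each of the 6 EZH2 lists (lines), for regions with an ATRX peak in both, 1 or neither ATRXΔRBR list (horizontal axis, 853, 768 and 208 regions). Every line falls from left to right, most in the ATRXΔRBR lists, from 80.9% to 41.3% and from 49.1% to 11.1%.

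Regions with ATRX in a single ATRXΔRBR list differed by which list it was. For the 218 regions with ATRX in replicate 1 alone, EZH2 was listed at 85.3% in ATRXΔRBR replicate 1 and at 22.9% in replicate 2. For the 550 regions with ATRX in replicate 2 alone, the shares were 47.1% and 41.3%. The former also had EZH2 more often in the other genotypes, at 93.1% and 83.0% in WT and 15.1% and 19.3% in the libraries labelled ATRX KD, against 88.4% and 73.3% in WT and 2% and 4.36% in the libraries labelled ATRX KD for the latter. None of these differences was tested. Across all regions, 364 (19.9%) had ATRX in all 4 lists and EZH2 in all WT and ATRXΔRBR lists, and 40 (2.19%) had both proteins in every list of ATRX and EZH2. Neither protein was listed in any ATRXΔRBR list at 115 regions (6.29%), and 174 (9.51%) had EZH2 in both WT lists and nowhere else.

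Regions that kept EZH2 in both libraries labelled ATRX KD had another base composition than the rest. The 79 regions had a median GC content of 55.0% and a CpG ratio of 0.637 in the 300 bp window, and 24.1% of them held an AP-1 match. The 1576 regions without EZH2 in either library had 47.0%, 0.199 and 60.3%. In ATRXΔRBR the gap was small, with an AP-1 match in 58.3% of regions with EZH2 in both lists and in 61.0% of those with it in neither, and a median GC content of 49.3% and 45.7%.

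H3K27me3, which the rule did not use, was nearly absent from the regions. A peak was present at 0.328% and 0.601% of them in WT (6 and 11 regions), at 0.164% and 0.273% in ATRXΔRBR (3 and 5 regions) and at 0.765% and 0.711% in the libraries labelled ATRX KD (14 and 13 regions). ATRX peaks at promoters also had few, with a mean of 0.453% in WT, 0.510% in ATRXΔRBR and 1.53% in the libraries labelled ATRX KD. No H3K27me3 list had a peak at 1801 of the 1829 regions (98.5%). In WT and ATRXΔRBR these shares lay below the 3.77% to 5.41% of the genome that the H3K27me3 lists covered, and in the libraries labelled ATRX KD above the 0.232% and 0.204% that those lists covered. The measures are unlike, since a region counts with an overlap of 1 bp while cover counts bases. A share above the cover is therefore not read as enrichment. The mean over the regions was 0.465% ± 0.193 in WT, 0.219% ± 0.0773 in ATRXΔRBR and 0.738% ± 0.0387 in the libraries labelled ATRX KD (SD, n = 2 libraries each). The difference from WT was −0.246 points in ATRXΔRBR and 0.273 points in the libraries labelled ATRX KD, each with p = 0.333 in an exact permutation test, the smallest possible. Both rest on few regions. Without WT replicate 2 the former was −0.109 points and without WT replicate 1 it was −0.383 points, and the latter was 0.410 and 0.137 points.

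Distal EZH2 peaks without ATRX differed from the regions in this mark. They had H3K27me3 at 45.5% and 46.9% in WT, at 34.4% and 33.6% in ATRXΔRBR and at 12.8% and 11.8% in the libraries labelled ATRX KD. The regions were lower in 6 of 6 lists, with a mean difference of −30.4 percentage points and p = 0.03125 in an exact two-sided sign-flip permutation test, the smallest that 6 lists allow. This comparison was chosen after the shares had been seen, and the distal EZH2 peaks without ATRX were wider at the upper quartile, with 899 bp against 644 bp. Without the libraries labelled ATRX KD the difference was −39.7 points (p = 0.125, exact permutation test, the smallest that 4 lists allow), and in them alone it was −11.6 points. The median distance to the nearest H3K27me3 peak of WT was 221 kb and 210 kb for the regions and 2.85 kb and 2.18 kb for distal EZH2 peaks without ATRX. Within 5 kb of such a peak lay 1.04% and 0.985% of the regions and 52.2% and 52.9% of the distal EZH2 peaks without ATRX.

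Distal ATRX peaks without EZH2 also had few H3K27me3 peaks in WT, with 0.193% in both replicates. They had 0.774% and 0.580% in ATRXΔRBR and 6.19% and 6.38% in the libraries labelled ATRX KD. Over the 6 lists the mean difference was −1.91 points, with p = 0.1875 in an exact sign-flip permutation test. It was −0.0935 points without the libraries labelled ATRX KD and −5.55 points in them alone. The few H3K27me3 peaks that the libraries labelled ATRX KD had at the regions were among the strongest of their lists, at a median percentile of 99.6 and 99.7 of fold enrichment, and 13 of 14 in replicate 1 lay at regions below the lower quartile of ATRX enrichment.

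H3K27me3 was present in both WT lists at 4 regions. At chr5:137030114-137030394, in an exon of Vgf, which encodes a secreted neuropeptide precursor, fold enrichment of H3K27me3 was 4.76 and 4.39 in WT and 3.46 and 3.59 in ATRXΔRBR, and EZH2 was listed in all 6 lists. At chrX:94169251-94169794, 43.1 kb from the TSS of Eif2s3x, it was 3.93 and 4.37 in WT and 3.03 in ATRXΔRBR replicate 2 alone, and ATRX was in all 4 lists. At chr9:57831355-57831671, in an intron of Arid3b, it was 3.65 and 3.74 in WT and absent elsewhere, as at the chromosome 5 region whose sequence is printed above. The 28 regions with H3K27me3 in at least 1 list had a median GC content of 54.8% and a CpG ratio of 0.739, against 47.3% and 0.206 for the other regions on assembled chromosomes.

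With both proteins in every list of ATRX and EZH2, the regions of highest ATRX enrichment lay in an intron of Egln1, the oxygen sensor of the HIF pathway (chr8:124926360-124926937), in an exon of Spaca6 beside the microRNA gene Mir125a (chr17:17837966-17838316), in an exon of the tropomyosin gene Tpm1 (chr9:67043747-67044053) and in an exon of Ssc4d (chr5:135962525-135962985). At Tpm1 the ATRX fold enrichment was 6.38 and 4.93 in WT and 4.35 and 4.06 in ATRXΔRBR. EZH2 there had 6.22 and 4.98 in the WT lists, 6.13 and 3.98 in those of ATRXΔRBR, and 3.64 and 4.07 in those labelled ATRX KD. Of the regions with EZH2 in both WT lists and without ATRX in ATRXΔRBR, one was intergenic at chr3:145685025-145685418 and another intronic in Veph1 (chr3:66079978-66080198). The former, the highest in ATRX enrichment of this kind, also had no EZH2 in any list outside WT.

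Host genes were mostly expressed. Of 815 host genes in the RNA-Seq tables, 555 (68.1%) had at least 1 TPM in both WT libraries. Among protein-coding ones the share was 79.1%, with a median of 17.0 TPM. It was 81.5%, with 21.5 TPM, for protein-coding genes that hold a distal ATRX peak without EZH2, 57.1% and 4.74 TPM for those that hold a distal EZH2 peak without ATRX and 50.9% and 1.61 TPM for all protein-coding genes. In such bulk RNA, fewer cells of a type and less RNA per cell cannot be told apart.

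In ATRXΔRBR, 63 of the 649 host genes tested changed, 41 of them higher and 22 lower than in WT. The test was edgeR's quasi-likelihood F test on estimated counts, and p-values were adjusted over all genes by the Benjamini-Hochberg method, with a threshold of 0.05. Of all 16287 genes tested 6.88% were called, 2.79% higher and 4.08% lower, against 9.71%, 6.32% and 3.39% of host genes. Among protein-coding genes alone, 10.4% of hosts and 8.38% of all were called. Of 169 genes that hold a distal ATRX peak without EZH2, 11 were called (6.51%), 5 higher and 6 lower. The difference from host genes was not tested. The median log2 fold change was 0.08 over host genes and −0.02 over all genes tested. Host genes had a median log2 CPM of 5.40 against 4.31 over all genes, and its part in the share of calls was not tested. With at least 10 counts in every library, 39 of 554 host genes were called, 31 higher and 8 lower. Of all 11929 genes tested there, 597 were called, 315 higher and 282 lower. With crossed replicate numbers as a block, 290 of 649 host genes were called, 177 higher and 113 lower. Of all 16287 genes, this block called 5547, 2647 higher and 2900 lower. Without ATRXΔRBR replicate 1, the median log2 fold change was −0.002 over host genes and −0.02 over all genes. Genes whose region lacked EZH2 in both ATRXΔRBR lists were called in 11.8% of cases and genes whose region kept it in both in 9.38%, a difference that was not tested.

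The 8 host genes that rose in ATRXΔRBR with the smallest adjusted p were Hhipl1, Col18a1, Abca4, Etv1, Cpeb3, Fam20a, Itpr2 and Lrrc8d. Hhipl1, a secreted relative of the hedgehog-interacting protein, had 1.52 and 2.09 CPM in WT and 19.02 and 17.9 CPM in ATRXΔRBR. Its log2 fold change was 3.35 (standard error 0.27, adjusted p = 0.000595). Col18a1, the gene of collagen XVIII, holds 2 regions and went from 35.0 and 37.5 CPM to 92.7 and 94.2 CPM (log2 fold change 1.37, standard error 0.17, adjusted p = 0.00331). In both genes the 2 libraries of each genotype were close together and the groups did not overlap. Choosing genes by adjusted p from these same libraries favours such a pattern, so it is a description only. Itpr2, a calcium channel of the endoplasmic reticulum, had 32.4 and 30.6 CPM in WT and 115 and 77.3 CPM in ATRXΔRBR, a log2 fold change of 1.61. Etv1, an ETS family transcription factor, went from 1.67 and 1.42 CPM to 8.98 and 7.02 CPM, a log2 fold change of 2.36. The remaining rises were those of the lipid transporter Abca4 (2.83), the translational regulator Cpeb3 (1.49), the pseudokinase Fam20a (1.57) and the anion channel subunit Lrrc8d (1.36), given as log2 fold changes with adjusted p between 0.00343 and 0.00634.

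The 8 host genes that fell in ATRXΔRBR with the smallest adjusted p were Panx1, Zfp618, Pdgfc, Iqgap2, Bmp6, Igf1, Ank2 and Emilin2. Pdgfc, a platelet-derived growth factor, had 17.1 and 13.7 CPM in WT and 1.90 and 1.59 CPM in ATRXΔRBR (log2 fold change −3.14, standard error 0.28, adjusted p = 0.000824). Bmp6, a bone morphogenetic protein, went from 9.11 and 8.59 CPM to 0.951 and 1.09 CPM (log2 fold change −3.10, adjusted p = 0.00130). Igf1, insulin-like growth factor 1, went from 6.91 and 8.01 CPM to 0.740 and 0.507 CPM (log2 fold change −3.59, adjusted p = 0.00145). All 3 were lower in both ATRXΔRBR libraries than in either WT library, which their choice by adjusted p favours. Panx1, a channel of the plasma membrane, had 9.49 and 8.01 CPM in WT and 0 and 0.0724 CPM in ATRXΔRBR (adjusted p = 0.000573), and Iqgap2, a scaffold protein, had 5.01 and 5.42 CPM against 0.106 and 0.145 CPM (adjusted p = 0.000925). Both genes were near 0 in both ATRXΔRBR libraries. Zfp618, Ank2, the gene of ankyrin-2, and Emilin2, a matrix glycoprotein, fell with log2 fold changes of −4.15, −3.31 and −3.10, the last −3.75 without ATRXΔRBR replicate 2. Tnfrsf19 was at 0 in both ATRXΔRBR libraries and at least 11.9-fold lower, set against a floor of 3 counts over the group. Placed at this bound it still lies below the median of the host genes, which does not change.

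Of the genes with most regions, Matn2 rose in ATRXΔRBR. It had 49.99 and 57.95 TPM in WT and 100.35 and 91.2 TPM in ATRXΔRBR (log2 fold change 0.78, standard error 0.16, adjusted p = 0.0279), and 66.0 and 68.2 TPM in the libraries labelled ATRX KD, where it was not called (0.10, adjusted p = 0.53). Its call in ATRXΔRBR was lost without any 1 of the 4 libraries, with log2 fold changes between 0.76 and 0.80 and adjusted p between 0.0552 and 0.0905. Syn3 had less than 1 TPM in all 6 libraries, and Myof between 385 and 491 TPM with no call in either comparison. Host genes with 2 regions or more were called in 8 of 131 cases (6.11%), all higher, where 6.88% of all genes were called in either direction and 2.79% higher.

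In the libraries labelled ATRX KD, 304 of the 643 host genes tested differed from WT, 176 higher and 128 lower. This was 47.3% of host genes, against 33.1% of all 16748 genes tested, of which 15.2% were higher and 17.8% lower. Of host genes 27.4% were higher and 19.9% lower, and among protein-coding genes 48.8% of hosts and 39.5% of all were called. The median log2 fold change was 0.07 over host genes and −0.02 over all genes. Without replicate 2 of the libraries labelled ATRX KD these medians were 0.08 and −0.05. Genes that hold a distal ATRX peak without EZH2 were called in 51.5% of 165 cases, and the difference between the groups was not tested. These calls share their WT libraries with those of ATRXΔRBR.

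The host genes named for the libraries labelled ATRX KD are likewise the 8 in each direction with the smallest adjusted p. Fbn1, the gene of fibrillin-1, had 111 and 132 CPM in WT and 523 and 548 CPM in the libraries labelled ATRX KD (log2 fold change 2.14, standard error 0.13, adjusted p = 0.000142). Hspg2, the gene of perlecan, went from 343 and 389 CPM to 1024 and 1137 CPM, a log2 fold change of 1.56. Col6a3, a collagen VI chain, fell from 54.8 and 67.0 CPM to 0.764 and 0.0923 CPM (log2 fold change −7.62, standard error 0.45, adjusted p = 0.000133). Its log2 fold change was −9.24 without replicate 1 of the libraries labelled ATRX KD and −6.28 without replicate 2. Fbn1 and Hspg2 were thus higher, and Col6a3 lower, in both libraries, which their choice by adjusted p favours. Elmo1, which activates RAC signalling, rose from 3.99 and 3.51 CPM to 47.4 and 47.6 CPM, a log2 fold change of 3.66. Nrp2, a semaphorin and VEGF receptor, rose from 139 and 144 CPM to 418 and 431 CPM, a log2 fold change of 1.59. The other rises were those of H6pd, Ppm1e, Pgm5 and Man1c1, with log2 fold changes between 1.71 and 2.89.

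Of the lower ones, Clmp, a cell adhesion molecule, had the smallest adjusted p, with 78.6 and 65.4 CPM in WT and 0.327 and 0.507 CPM in the libraries labelled ATRX KD (log2 fold change −7.29, standard error 0.25, adjusted p = 2.44e-05). Fgfr2, a fibroblast growth factor receptor, went from 13.7 and 14.97 CPM to 0.109 and 0.231 CPM, a log2 fold change of −6.15, or −6.88 without replicate 2 of the libraries labelled ATRX KD. Enpp2, which encodes autotaxin, had 14.5 and 15.8 CPM in WT and 0 in both libraries labelled ATRX KD, at least 156-fold lower against a floor of 3 counts over the group. All 3 genes were thus at or near 0 in these libraries. Col5a3, Gria1, Syt1, Cyp7b1, Sox5, Col6a6 and Gm35333 were also at 0 in both, and against the same floor they were at least 6.56-fold to 46.9-fold lower. Tns1, a focal adhesion protein, Msmo1, an enzyme of cholesterol synthesis, and Prkg2, a cGMP-dependent kinase, had log2 fold changes of −3.89, −1.74 and −2.32. Emilin2 was named in both comparisons, at −3.91 here, and its WT libraries are the same in both. Of the genes with most regions, Sorcs2 rose from 5.85 and 7.96 TPM to 16.03 and 15.3 TPM (log2 fold change 1.07, adjusted p = 0.00330), and Babam2 fell on the count scale (log2 fold change −0.59, adjusted p = 0.0122), a call lost without replicate 1 of these libraries (adjusted p = 0.123) or replicate 2 (0.183).

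**Figure D5:**
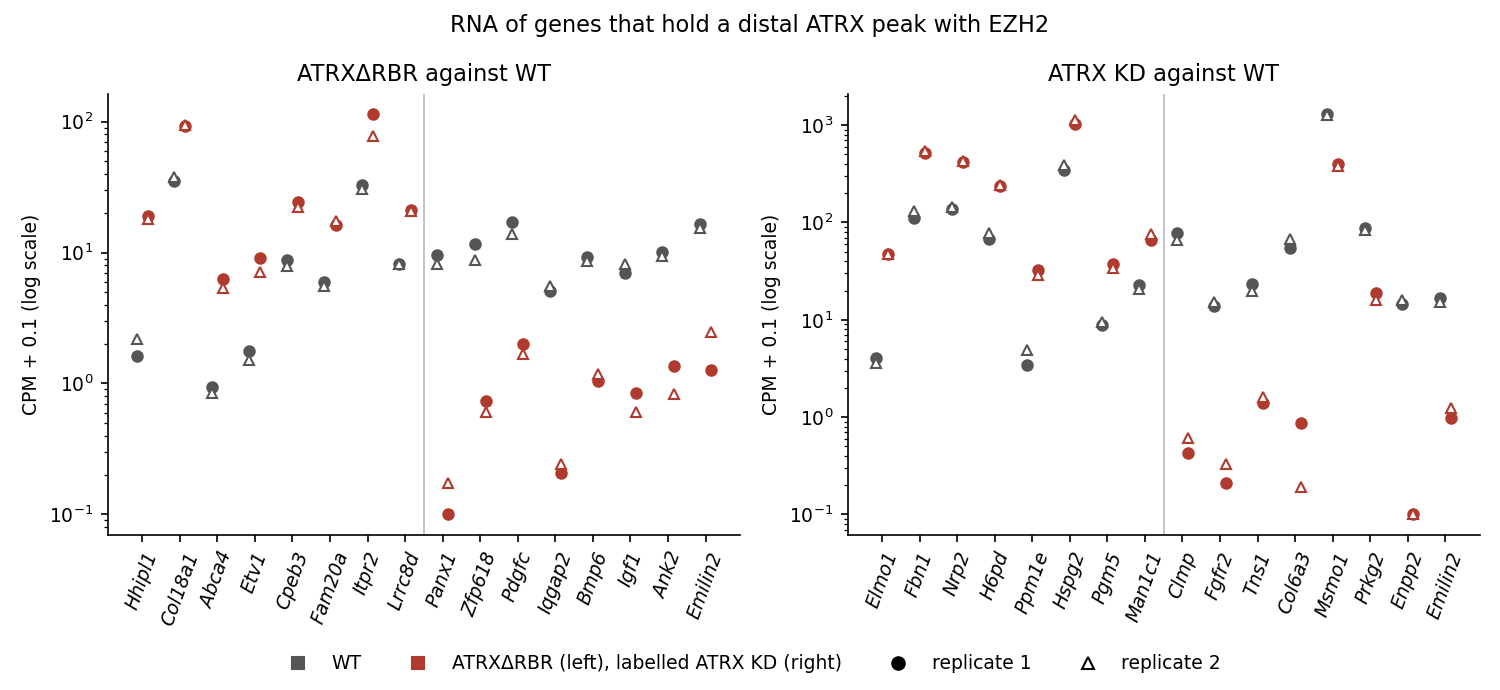
Expression in CPM + 0.1 (logarithmic vertical axis) of the named host genes in WT (grey) and in ATRXΔRBR (red, left panel) or the libraries labelled ATRX KD (red, right panel). Circles are replicate 1 and triangles replicate 2, with genes that were higher left of the line and genes that were lower right of it. The 2 libraries of a genotype do not overlap those of WT in any gene shown. The genes were chosen by smallest adjusted p from these same libraries, which favours such a gap.

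Of 12 PRC2 genes tested, 1 was higher and 0 were lower by edgeR in ATRXΔRBR, where 6.88% of all genes were called, while 1 was higher and 2 were lower at an unadjusted p under 0.05, and DESeq2 called 1 in each direction, Ezh1 and Epop. Ezh1, the other catalytic subunit, had 12.3 and 16.5 TPM in WT and 35.2 and 26.5 TPM in ATRXΔRBR (log2 fold change 1.03, adjusted p = 0.0161), while Ezh2 had 204 and 177 TPM in WT and 246 and 206 TPM in ATRXΔRBR (0.28, adjusted p = 0.39). Of 9 genes of ATRX and H3.3 deposition, 0 were called by edgeR or DESeq2, and 1 was higher and 1 lower at an unadjusted p under 0.05. In the libraries labelled ATRX KD, where 15.2% of all genes were higher and 17.8% lower, 3 of the 12 PRC2 genes were higher and 5 lower, of which Eed, Ezh2, Phf1 and Rbbp7 lost their call without either of these libraries, with Ezh1 at a log2 fold change of 1.26 and the accessory subunits Aebp2 and Mtf2 at −1.07 and −0.78. Of the 9 ATRX and H3.3 genes, 3 were higher and 2 lower there, and 0 of these 5 were called without replicate 1 of these libraries. The H3K27 demethylases Kdm6a and Kdm6b were called in neither comparison by either tool.

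Of the 12 genes for AP-1, coactivators and other factors with sites in distal elements, 0 were higher and 3 lower in ATRXΔRBR by edgeR, by DESeq2 and at an unadjusted p under 0.05, against 2.79% and 4.08% of all genes by edgeR. The 3 were AP-1 subunits. Fos had 10.8 and 13.7 TPM in WT and 6.20 and 6.03 TPM in ATRXΔRBR (log2 fold change −1.10, adjusted p = 0.0263). Junb went from 147 and 129 TPM to 63.99 and 83.4 TPM (−0.96, adjusted p = 0.0458), and Fosl2 from 68.5 and 65.1 TPM to 45.9 and 36.9 TPM (−0.78, adjusted p = 0.0362). All 3, named because they were called, were lower in both ATRXΔRBR libraries than in either WT library. By edgeR the call of Fos was lost without ATRXΔRBR replicate 1 or 2 (adjusted p = 0.0577 and 0.0658), that of Junb without WT replicate 1 or ATRXΔRBR replicate 1 (0.0584 and 0.131) and that of Fosl2 without WT replicate 1 or ATRXΔRBR replicate 2 (0.1498 in both). Fosl1, Jun, Jund and Fosb were not called. In the libraries labelled ATRX KD, against 15.2% higher and 17.8% lower of all genes, 4 of the 12 genes were higher, among them Tead1 (0.78) and Jun (0.52, a call lost without either of these libraries, as that of Ep300), and 2 were lower, Fosl1 (−0.79) and Junb (−1.42), with Fos at −0.13 and adjusted p = 0.63. Runx1 and the PRC2 gene Jarid2 are themselves host genes, and were called in neither comparison.

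Some fibroblast markers were abundant and others absent. Vim, the most abundant marker, had between 3903 and 6511 TPM and Col1a2 between 1772 and 2848 TPM over the 6 libraries, and the 10 fibroblast markers summed to between 7202 and 11556 TPM. Thy1 was at 0 in all libraries, and Lum was at 0 in 5 of them. Col3a1 had 28.1 and 32.2 TPM in WT, 20.3 and 15.8 TPM in ATRXΔRBR and 0.360 and 0.750 TPM in the libraries labelled ATRX KD. It fell in both comparisons, with log2 fold changes of −0.91 and −6.99, of which the former was not called without WT replicate 1 (adjusted p = 0.0615) or ATRXΔRBR replicate 2 (0.0787). Of the 8 fibroblast markers tested, it was the only one edgeR called in ATRXΔRBR, where 6.88% of all genes were called and 4.08% were lower. The median log2 fold change of the list was 0.33 there, and DESeq2 also called Fn1, at 0.95 by edgeR (adjusted p = 0.0621). In the libraries labelled ATRX KD, 15.2% of all genes were higher and 17.8% lower. Of the 8 markers, 2 were higher there, Fn1 (0.99) and Pdgfrb (0.51, a call lost without either of these libraries). The 2 lower ones were Col3a1 and Dcn, and Dcn was at 0 in both libraries. Of other cell types, the 4 epithelial markers summed to less than 1 TPM in every library. Among them, Cdh1 was called lower in the libraries labelled ATRX KD by edgeR (log2 fold change −2.99, adjusted p = 0.0204), but not by DESeq2 (adjusted p = 0.104). Among the 3 blood markers Cd68 had between 4.55 and 12.1 TPM, with Adgre1 at 0 in all libraries and Ptprc at 0 in 5. Of the 3 endothelial markers, Pecam1 had 0.930 and 1.58 TPM in WT, 5.22 and 3.01 TPM in ATRXΔRBR and 0 in both libraries labelled ATRX KD, and Cdh5 was at 0 throughout. In the libraries labelled ATRX KD, Pecam1 was called lower by edgeR (adjusted p = 0.00373) and by DESeq2 (adjusted p = 0.000463). Pecam1 was called higher in ATRXΔRBR by edgeR (log2 fold change 1.48, adjusted p = 0.0479), but not by DESeq2 (adjusted p = 0.108) or without WT replicate 1 (0.0640) or ATRXΔRBR replicate 1 (0.188). Pou5f1, Myod1 and Myog were at 0 in all libraries, and Nanog had at most 0.350 TPM. Of the muscle markers, Des had 0.370 and 0.210 TPM in WT and 2.23 and 1.76 TPM in ATRXΔRBR (log2 fold change 2.79, adjusted p = 0.0194 by edgeR), and was not called by DESeq2 (adjusted p = 0.0625) or without ATRXΔRBR replicate 2 (0.0583). The part of these shifts in the host gene results was not tested.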

How the data were processed

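CUT&RUN and RNA-Seq libraries of WT, ATRXΔRBR and ATRX KD MEFs were analysed from the files deposited by the authors. The authors mapped CUT&RUN reads to mm10 (Bowtie2) and called peaks in each library by MACS2 in broad mode, and the deposited peaks carry a fold enrichment and a −log10 q-value. Whether IgG served as control is not given in the sources used here. RNA-Seq reads were aligned with STAR, and the authors deposited estimated counts and TPM from RSEM. Peak lists hold no read totals, and the study's methods give only an approximate range over samples, so the depth behind each list was not used here. Estimated counts summed to 1.33206e+07 and 1.18566e+07 for WT, 9.57417e+06 and 1.36948e+07 for ATRXΔRBR, and 9.05169e+06 and 2.17236e+07 for ATRX KD.

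Peaks shared 1 bp or more, except where another overlap is named. Annotation was GENCODE M21 and sequence GRCm38, which no peak exceeded. Shares were compared over libraries by exact two-sided permutation or sign-flip tests (Python 3.11.15, scipy 1.17.1). Estimated counts were rounded, genes with over 10 counts in total were kept, and edgeR 4.0.16 (R 4.3.3) was run with TMM scaling and Benjamini-Hochberg adjustment at 0.05, after a test on simulated data, with DESeq2 1.42.0 as an alternative. Named host genes were the 8 higher and 8 lower ones of smallest adjusted p, beside those with most regions. Replicate numbers were not used to pair the RNA-Seq libraries, and the main fits hold no block. The regions, gene lists and tests were chosen with earlier results of these data known. The sequence and values of 1 region that the rule would have shown are not reported here.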

Additional observations from a re-analysis of the deposited data

Results flagged for a closer look

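The difference in H3K27me3 share between distal ATRX peaks with EZH2 and those without had opposite signs in the genotypes. It was 0.135 and 0.408 percentage points in the 2 WT lists, with the regions higher, and −0.610 and −0.307 points in the 2 ATRXΔRBR lists, with the regions lower. The gap between the 2 means was 0.730 points, with p = 0.333 in an exact permutation test of genotype labels, the smallest that 2 lists against 2 allow. It rests on 3 to 11 of 1829 regions and 1 to 4 of 517 peaks in each list. In the lists labelled ATRX KD the difference was −5.42 and −5.67 points, a gap of 5.82 points from WT with the same exact permutation p = 0.333. These lists have far larger −log10 q-values than the others, and their part in this gap was not tested.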

How the results depend on the processing

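Of the alternatives for the comparisons of shares, 3 reversed the direction. Nearly all of these designs are too small to pass 0.05, so keeping their side of it says nothing of stability. The number of regions was 1928 and 1597 with TSS windows of 1 kb and 5 kb, 1219 with 50% overlap, 922 at a q-value of 0.01 and 1835 from WT replicate 2. With the libraries labelled ATRX KD alone, the EZH2 difference was −0.816 points against distal ATRX peaks without EZH2 and −1.05 points against distal EZH2 peaks without ATRX. Leaving out 1 list at a time, the latter ranged from −1.23 to 3.43 points. The H3K27me3 difference from distal EZH2 peaks without ATRX was −39.7 points without the libraries labelled ATRX KD and −11.6 points in them alone, and ranged from −34.2 to −27.2 points without 1 list, where fewer lists cannot give a p under 0.05.

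In ATRXΔRBR, 1120 genes and 63 host genes were called. The numbers were 1979 and 109 with no filter beyond 1 count, 597 and 39 with at least 10 counts in every library, and 1736 and 104 with all 6 libraries in 1 fit. For the libraries labelled ATRX KD, 5542 genes and 304 host genes were called, and from 3194 to 8953 genes and from 193 to 434 host genes without 1 library, where the lone library is assumed to vary like the others. The 16 host genes named by smallest adjusted p in each comparison kept their direction and call in every setting that gave them a value. Of the other genes named, for which the settings were run after their values were seen, Matn2, Fos, Fosl2, Col3a1 and Pecam1 also lost their call in ATRXΔRBR with the replicate block, at adjusted p of 0.128, 0.0595, 0.116, 0.0651 and 0.0584, and Junb with at least 10 counts in every library (0.0564). In the libraries labelled ATRX KD, Ezh2 lost its call by edgeR with the replicate block (adjusted p = 0.106) and by DESeq2 (0.0636). With all 6 libraries in 1 edgeR fit, Ezh2 (adjusted p = 0.0515) and Ep300 (0.151) were not called there. With the replicate number as a block the counts were 1068 and 56 in ATRXΔRBR and 5796 and 314 in the libraries labelled ATRX KD. The H3K27me3 differences from WT were −0.246 and 0.273 points with the replicate block, as its construction fixes, with p = 0.5 each in the exact sign-flip permutation test. With peaks at a q-value of 0.01 or less, that of the libraries labelled ATRX KD was 0.922 points. Deviations of same-numbered libraries correlated at −0.65 between WT and ATRXΔRBR, so libraries of opposite number deviated alike. A block with crossed numbers called 5547 and 290. The main fit holds no term for this shared deviation, and its source was not tested.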

Other observations

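The genes with the nearest TSS within 100 kb of a region gave a smaller share of calls than the genes that hold one. In ATRXΔRBR 52 of 589 such genes (8.83%) were called and in the libraries labelled ATRX KD 225 of 601 (37.4%), against 6.88% and 33.1% of all genes tested. For host genes the shares were 9.71% and 47.3%. Of 1440 nearest genes, only these 589 and 601 could be tested. Their median log2 CPM was 4.82 in both comparisons, against 5.40 and 5.46 for host genes, and its part in these shares was not tested. Host genes of distal EZH2 peaks without ATRX were called in 12.05% of cases in ATRXΔRBR and 41.8% in the libraries labelled ATRX KD. The shares of these groups were not tested against each other.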
